A study of Homo sapiens with 2 samples.

Results

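Interferon signalling in lung fibroblasts after knockdown of periostin was described here through 9 genes that carry the signal from the cell surface to the nucleus: the receptor chains IFNAR1 and IFNAR2, the Janus kinases JAK1 and TYK2, the signal transducer STAT2, and the interferon regulatory factors IRF1, IRF3, IRF7 and IRF9. The 9 genes were listed by name without regard to a threshold on signal, and every probe assigned to them through its RefSeq transcript was taken, 12 probes of the 50599 on the array and 9 genes of the 21743 that could be named. MRC-5 cells, an established fibroblast line from human fetal lung, received either periostin siRNA at 10 nM for 48 h or control siRNA, whose dose and time are not stated in the labels. RNA of 1 culture of each kind was hybridized to 1 single-colour Agilent array each, on a shared slide with a shared scan. Neither condition has a replicate, so no difference could be tested, no p-value is given, and every value describes these arrays alone.

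Type I interferons bind a receptor made of IFNAR1 and IFNAR2, to which the kinases TYK2 and JAK1 are attached. The kinases phosphorylate STAT proteins, among them STAT2, which joins IRF9 within the complex ISGF3, and this complex binds the interferon-stimulated response element (ISRE) in front of antiviral genes. IRF3 waits in the cytoplasm and switches on interferon genes once a sensor of foreign nucleic acid has been triggered, IRF7 amplifies that output, and IRF1 is best known as a factor induced by interferon-γ through the gamma-activated sequence (GAS). From this textbook knowledge STAT2, IRF9, IRF1 and IRF7 were taken as interferon-inducible components and IRF3, JAK1, TYK2, IFNAR1 and IFNAR2 as constitutive ones.

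Among the inducible components, IRF9 and IRF7 rose 2.40-fold and 2.38-fold with periostin siRNA, whereas STAT2 gave a ratio of 1.26 and IRF1 of 0.906. None of the 5 constitutive components passed 2-fold in either direction, and their ratios lay between 1.07 for JAK1 and 1.32 for IRF3. The median log2 ratio (periostin siRNA over control siRNA) was 0.79 over the 4 inducible components and 0.18 over the 5 constitutive ones, beside 0.06 over the 16052 genes that had a ratio on these arrays. A change was called when the ratio passed 2-fold. By that rule 2 of the 9 genes were higher and 0 were lower, where 7.97% of all genes with a ratio were higher and 6.42% were lower. At the 3-fold threshold used by the study, 0 of the 9 genes were called, where 3.37% of all genes were higher and 2.75% were lower.

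Signals are given below in arbitrary units after both arrays were brought to the same 75th percentile, so the arrays can be compared within a probe, but different probes cannot be compared with each other. The 75th percentile before scaling was 372 for control and 383 for periostin siRNA, 58.0% and 58.9% of the 58717 spots were well above background, and 0 spots were saturated. All 12 probes of the 9 genes were well above background on both arrays, each was printed once, and none carried an outlier flag. The error after ± is the propagated error that Feature Extraction attaches to each spot. It was compared with 688 probes printed 10 times and well above background on both arrays, whose log2 ratio had a pooled SD of 0.15 between spots. For probes within 1 log2 unit of the brightness of IRF9 that SD was 0.06, against a propagated error of 0.20 for IRF9. Neither error covers the difference between cultures. POSTN, the gene targeted by the siRNA, had a signal of 2638 with control siRNA and 279.8 with periostin siRNA, which gave a log2 ratio of -3.24 ± 0.20.

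The upstream sequence of 3 inducible genes is shown first because ISRE and GAS are the elements through which interferon acts on its inducible genes. The 250 bases before the gene start were available for 6 of the 9 genes in RefSeq windows of the GRCh38.p14 build, namely STAT2, IRF9, IRF1, JAK1, TYK2 and IFNAR1, and no window was used for IRF7, IRF3 or IFNAR2. The array itself was annotated on hg19, so these coordinates belong to the sequences and not to the probes. The searched motifs were the ISRE core TTTCNNTTTC, with GAAANNGAAA on the opposite strand, and the GAS motif TTCNNNGAA, which reads the same on both strands. The 3 windows printed next hold no ISRE core, so no overlap between the motifs arises in them. Capitals mark the GAS match, and STAT2 is shown beside the others as an inducible gene with neither motif in this window.

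IRF9, chr14:24161015-24161264, + strand: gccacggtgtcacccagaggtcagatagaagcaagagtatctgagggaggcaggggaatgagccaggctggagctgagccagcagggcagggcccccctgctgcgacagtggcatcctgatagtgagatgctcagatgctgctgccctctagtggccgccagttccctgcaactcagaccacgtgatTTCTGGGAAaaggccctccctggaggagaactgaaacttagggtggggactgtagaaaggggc
IRF1, chr5:132490774-132491023, - strand: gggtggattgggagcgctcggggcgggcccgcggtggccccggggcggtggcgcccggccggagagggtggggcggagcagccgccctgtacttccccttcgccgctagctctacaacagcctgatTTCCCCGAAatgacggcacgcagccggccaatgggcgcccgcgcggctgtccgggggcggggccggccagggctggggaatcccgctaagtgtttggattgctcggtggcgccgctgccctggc
STAT2, chr12:56360108-56360357, - strand: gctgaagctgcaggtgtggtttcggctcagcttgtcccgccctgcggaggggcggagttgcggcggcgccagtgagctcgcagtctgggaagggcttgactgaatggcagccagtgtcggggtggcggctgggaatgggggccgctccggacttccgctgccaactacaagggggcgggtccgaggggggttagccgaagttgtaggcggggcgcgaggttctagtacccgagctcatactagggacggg

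The GAS motif was found in the window of IRF9, beginning 63 bases before the start, and in that of IRF1, beginning 124 bases before it. These genes went apart on the arrays, IRF9 at 2.40-fold and IRF1 at a ratio of 0.906. The motif was in 0 of the 6 windows of JAK1, TYK2 and IFNAR1 and in 6.57% of all 35116 windows. The ISRE core was in 0 of the 9 windows of these 6 genes and in 3.02% of all windows. A match is a run of letters and not a shown binding site, and no match says only that the letters are not in this stretch.

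IRF9, the DNA-binding subunit of ISGF3, had a signal of 840 ± 84.0 with control siRNA and 2017 ± 202 with periostin siRNA, where ± is the propagated error of that signal. The log2 ratio was 1.26 ± 0.20. The error bars of the arrays do not overlap. Among the genes with a ratio, 5.39% had a higher one than IRF9, and among the 3605 genes of like brightness, within 1 log2 unit of it, 1.97% did.

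IRF7, which drives the amplifying arm of interferon production, had a signal of 1056 with control siRNA and 2514 with periostin siRNA, which gave a log2 ratio of 1.25 ± 0.20. Its ratio could not be told from that of IRF9, IRF9 exceeding IRF7 by 0.01 ± 0.29 on the log2 scale. A higher ratio than that of IRF7 was seen in 5.53% of all genes and in 1.98% of those of like brightness.

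STAT2, the STAT subunit of ISGF3 that is used by type I and type III interferon receptors, had a signal of 13349 ± 1335 with control siRNA and 16872 ± 1687 with periostin siRNA. Its log2 ratio of 0.34 ± 0.20 did not pass 2-fold, and 29.5% of all genes had a higher one. On the log2 scale IRF9 exceeded STAT2 by 0.93 ± 0.29, which is 3.21 times the error of that difference. Since both were read on the same arrays, a constant factor between arrays cancels from it. Steps that depend on brightness do not cancel, and quantile normalization gave 1.24 for IRF9 and 0.37 for STAT2. IRF1, an activator of antigen presentation and chemokine genes, had a signal of 348 with control siRNA and 315 with periostin siRNA. Its log2 ratio of -0.14 ± 0.20 was the lowest of the 9 genes and the only value below 0, smaller in size than its own error, and it lay 1.41 ± 0.29 below that of IRF9.

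**Figure D1:**
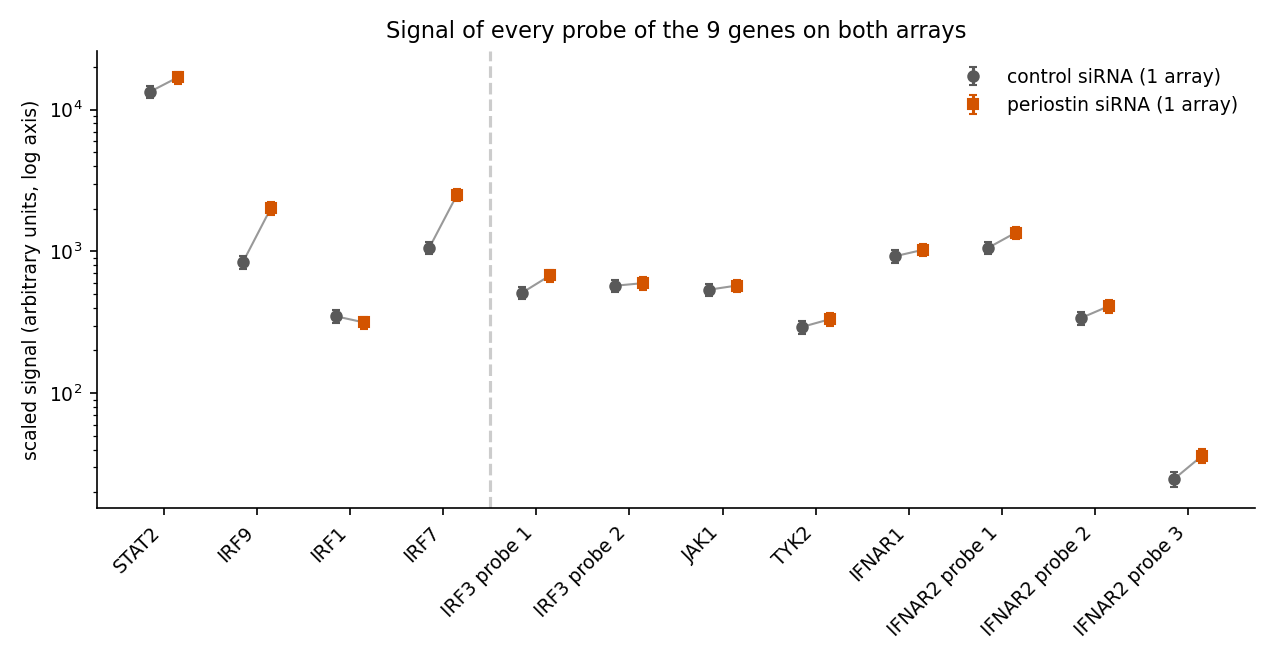
Scaled signal (arbitrary units, log axis) of each of the 12 probes with control siRNA (circles, 1 array) and periostin siRNA (squares, 1 array); bars are the propagated spot error, and the dashed line parts the inducible genes on the left from the constitutive ones on the right. The lines of IRF9 and IRF7 climb from 840 to 2017 and from 1056 to 2514, and that of IRF1 alone slopes down.

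Of the receptor chains, IFNAR1 had a signal of 924 with control siRNA and 1025 with periostin siRNA, and a log2 ratio of 0.15 ± 0.20. IFNAR2, the chain that binds interferon most tightly, was read by 3 probes. The brightest had signals of 1058 and 1358 and a log2 ratio of 0.36 ± 0.20, a second probe to the same transcript had signals of 339 and 412 and gave 0.28 ± 0.20, and the dimmest, to another transcript, had dim signals of 24.8 and 36.2 and gave 0.54 ± 0.25. All 3 probes of IFNAR2 were thus higher on the periostin siRNA array without passing 2-fold, and the largest difference between them, -0.26 ± 0.32 for the second probe minus the dimmest, was within its error.

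Of the receptor-bound kinases, JAK1, which also serves interferon-γ and many cytokine receptors, had a signal of 536 with control siRNA and 574 with periostin siRNA, and a log2 ratio of 0.10 ± 0.20. TYK2, the kinase attached to IFNAR1, went from 293 to 332, a log2 ratio of 0.18 ± 0.20. For JAK1, TYK2 and IFNAR1 the log2 ratio was smaller than the propagated error, though larger than the SD between spots of like-bright probes (0.075, 0.089 and 0.065). When the arrays were scaled on their medians, which moved the median of all genes by -0.13, the log2 ratio of JAK1 was -0.03, so that its sign depends on the scaling.

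IRF3, the latent factor that is controlled by phosphorylation, was read by 2 probes of nearly equal brightness. The first had signals of 512 with control siRNA and 677 with periostin siRNA and a log2 ratio of 0.40 ± 0.20, and the second, to another transcript, had 573 and 597 and gave 0.06 ± 0.20. The difference between the probes was 0.34 ± 0.29. The first probe stands for the gene here because it was brighter by a narrow margin, and under the normexp background correction the second took its place and the value for IRF3 became 0.02. By the first probe IRF7 exceeded IRF3, its closest relative in function, by 0.85 ± 0.29 on the log2 scale.

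**Figure D2:**
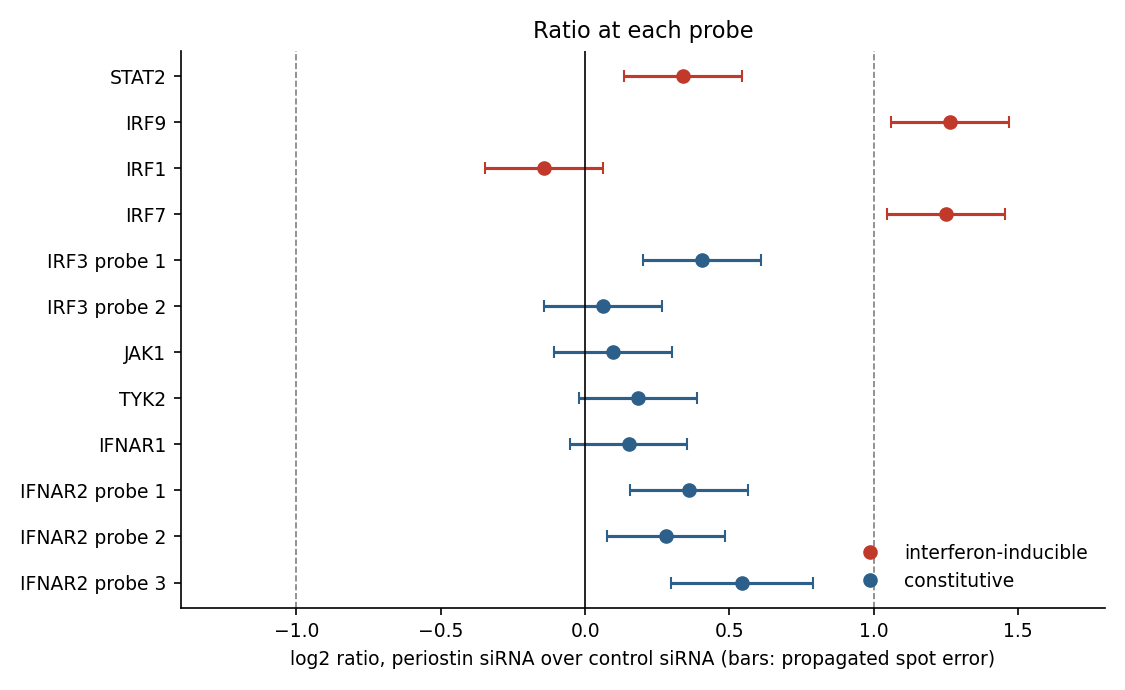
Log2 ratio (periostin siRNA over control siRNA) at each of the 12 probes, with the propagated spot error as bars; dashed lines mark 2-fold. IRF9 and IRF7 lie to the right of the 2-fold line at 1.26 and 1.25, and the other 10 probes lie between -0.14 and 0.54.

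The constitutive components lay between 0.10 and 0.40 on the log2 scale. Of the 10 pairs of these 5 genes, 0 differed by more than 2 propagated errors, and the largest difference, between IRF3 and JAK1, was 0.31. The SD between spots of like-bright probes was smaller than that error, at 0.07 for IRF3 and 0.07 for JAK1. The count therefore depends on the error used and does not show that the 5 genes agree. The inducible components spread more widely, from -0.14 to 1.26. The medians of both classes differed by 0.61, where the inducible median is the mean of the values of STAT2 and IRF7, which lie far apart at 0.34 and 1.25. Of all 9 genes, 8 had a log2 ratio above 0, where 8745 of the 16052 genes with a ratio did, and the median over the 9 was 0.34.

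**Figure D3:**
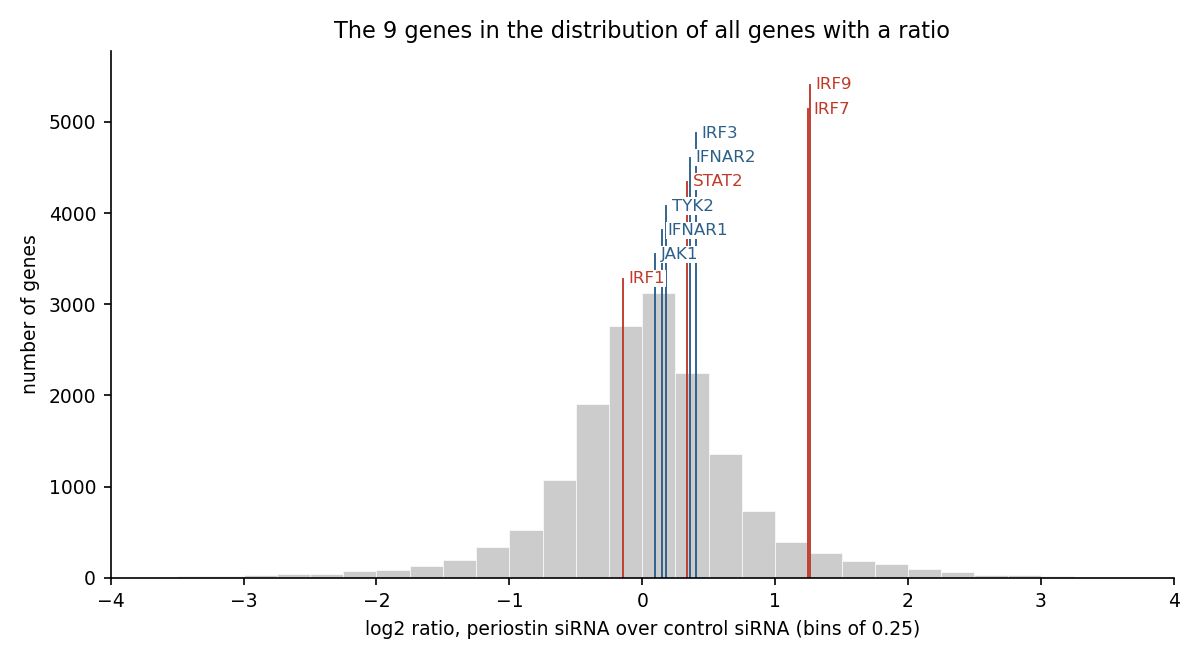
Number of genes (vertical axis) by log2 ratio (periostin siRNA over control siRNA) in bins of 0.25 (grey bars; 32 genes below -4 and 18 above 4 lie outside the axis), with vertical lines at the 9 genes, inducible in red and constitutive in blue. IRF9 and IRF7 stand in the right flank at 1.26 and 1.25, and the other 7 genes lie near the centre, between -0.14 and 0.40.

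STAT4 and STAT3, read for comparison with STAT2, passed 2-fold. STAT4, which serves interleukin-12, went from a dim 15.3 to 59.8, and STAT3, the main mediator of interleukin-6, from 394 to 789. STAT3 lay on the threshold itself, with log2 ratios of 1.001 and 1.0001 at its probes. STAT6, the mediator of interleukin-4 and interleukin-13, gave 0.50 and STAT5B gave -0.25.

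Of the other receptor chains and Janus kinases, 5 of 6 could be measured, and 1 was higher past 2-fold. This was JAK3, a kinase of cytokine receptors that share the common γ chain, which went from 222 to 1065 by its brighter probe, a log2 ratio of 2.26, but its other probe gave 0.38. The interferon-γ receptor chains IFNGR1 and IFNGR2 gave -0.15 and 0.46, IL10RB, a chain of the type III interferon receptor, gave 0.15, JAK2 gave 0.04, and IFNLR1 was below background on both arrays. Of the other IRFs, IRF4 and IRF8 were below background on both arrays. IRF2, a repressor of IRF1 targets, gave -0.69 and IRF5 0.31, both from signals under 50.

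Of 21 interferon genes 17 could be named on the array, and 14 of these were below background on both arrays, IFNB1 and IFNG among them. IFNE was not well above background with control siRNA, where its signal was 4.997, and reached 17.8 with periostin siRNA, at least 2.36-fold higher by a bound against the lowest signal well above background. IFNL2 gave a log2 ratio of 0.23 and IFNA4 of -0.35 from dim signals, and both belong to families of near-identical genes that a probe may not tell apart.

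Of 13 feedback inhibitors 11 could be measured, with 1 higher and 2 lower past 2-fold and a median log2 ratio of 0.04. SOCS1, which blocks the Janus kinases directly, rose from 389 to 1165, a log2 ratio of 1.58. SOCS3, the inhibitor best known from interleukin-6 signalling, fell from 2256 to 598, 3.78-fold lower. PTPN11, the phosphatase SHP-2, fell from 2878 to 1296, a log2 ratio of -1.15 ± 0.05 (SD over 10 spots), and its 3 probes lay between -1.296 and -1.083. USP18, an interferon-induced protease that holds IFNAR2 in check, went from 1135 to 937, a log2 ratio of -0.28 ± 0.20.

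Upstream of IRF3 and IRF7, 14 of 14 kinases and adaptors had a ratio, and its log2 median was 0.20. The gene past 2-fold was TLR3, the endosomal receptor of double-stranded RNA, which rose from 80.0 to 302, a 3.78-fold change. IKBKE, a kinase that phosphorylates IRF3 and IRF7, gave 0.96 and STING1, the adaptor of DNA sensing, gave 0.89, both just short of 2-fold. TBK1, the other kinase of this step, gave 0.04. Of the 14 genes 10 had a log2 ratio above 0 and 4 below 0, the lowest being IRAK1 at -0.71 and TANK at -0.48. The adaptor MAVS was read by 7 probes between -0.42 and 0.32, of which the brightest gave -0.42 and the other 6 were above 0.

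Of 16 genes known as targets of ISGF3 15 could be measured, 13 were higher past 2-fold, 9 of these past 3-fold, 0 were lower, and the median log2 ratio was 1.92. The largest changes were those of BST2, or tetherin, which holds budding virus at the cell surface and rose from 10.8 to 325, of IFI44L, from 17.0 to 318, and of OAS2, a synthetase that activates RNase L, from 27.5 to 389. The 3 probes of OAS2 gave log2 ratios between 2.44 and 3.82, and the brightest, used here, gave 3.82. OAS1, a synthetase of the same family, was well above background with periostin siRNA alone and was at least 9.51-fold higher. The control signals of these 4 genes were all dim. Among brighter targets, MX1, a GTPase that traps viral nucleocapsids, rose from 409 to 3425, IFIT1, which binds foreign RNA caps, from 2850 to 10812, and IFI6 from 773 to 3147. ISG15 at 0.60 and MX2 at 0.45 did not pass 2-fold. USP18, listed with the feedback inhibitors and not counted here, is also induced by interferon and gave -0.28. The listed targets of ISGF3 were already known to be higher from an earlier look at these arrays, so the count is a description and not independent evidence. Of the 13 target genes with a promoter window 12 held the ISRE core, in 15 of their 19 windows. They include IFI27, which could not be named on the array. The windows of IFI27 overlap and share a core, as do those of IFI44. Targets of a complex that binds the ISRE are chosen in a way that favours this element, so the share is a description only. The core was also in 5 of 11 windows of the interferon-γ and IRF1 targets and in 5 of 19 windows of the ligands. Over all windows it was in 3.02%. Stretches of 3 ISGF3 targets are shown because they carry the letters that the windows of IRF9, STAT2 and IRF1 lacked. Capitals mark the first core found in each window, written in the direction of the gene. The IFIT1 stretch holds a further match to the core near its end, left in lower case.

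IFIT1, chr10:89392492-89392531, + strand: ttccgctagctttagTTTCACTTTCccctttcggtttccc
MX1, chr21:41431839-41431878, + strand: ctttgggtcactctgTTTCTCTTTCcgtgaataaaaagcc
IFI6, chr1:27672324-27672363, - strand: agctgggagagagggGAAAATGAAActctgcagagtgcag

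Of 13 genes known as targets of interferon-γ and IRF1, 12 could be measured, 5 were higher past 2-fold and 0 were lower, with a median log2 ratio of 0.41. The chemokine CXCL10 rose from 56.3 to 899, and GBP2 and GBP1, which attack the membranes around pathogens, rose 5.31-fold and 3.71-fold. GBP4 of the same family did not rise, at -0.05, and IDO1 gave 0.08, both from dim signals. CXCL11 was at least 6.92-fold higher. NLRC5 passed 2-fold by its brighter probe at 1.03 and not by the other at 0.23. The antigen presentation genes of this list stayed within 2-fold, with TAP1 at 0.37, B2M at 0.44, PSMB9 at 0.16 and PSMB8 at -0.10, as did IRF1 itself at -0.14.

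**Figure D4:**
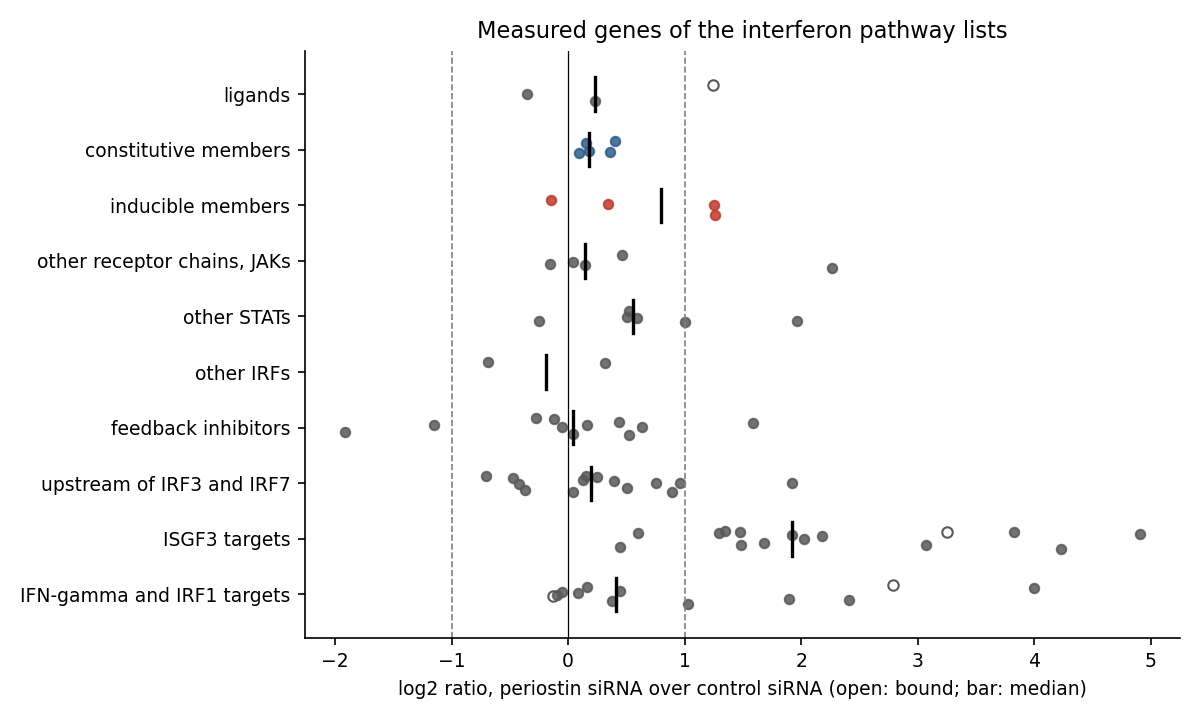
Log2 ratio (periostin siRNA over control siRNA) for each measured gene of the pathway lists (filled points; open points are bounds), with the median of each list as a black bar and dashed lines at 2-fold. The targets of ISGF3 have their median at 1.92, whereas the constitutive components cluster around 0.18.

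The cells carried the markers of fibroblasts on both arrays. All 12 fibroblast markers were well above background, VIM and COL1A2 being bright, and 0 of 12 passed 2-fold. Within that limit 8 had a log2 ratio below 0 and 4 above 0. PDGFRA at -0.90 and COL1A1 at -0.54 were the lowest, and LUM at 0.83 and FAP at 0.57 the highest. Of 12 immune cell markers 7 could be measured and 0 passed 2-fold, their summed signal was 1969 after control and 3146 after periostin siRNA, most of it from CD68 and CD14, and HLA-DRA, LAPTM5, MS4A1 and S100A8 were below background on both arrays. Of 7 epithelial markers 6 could be measured, and EPCAM and KRT19 were higher past 2-fold at 3.90-fold and 2.05-fold. EPCAM went from a dim 34.6 to 135 at a probe that carried an outlier flag. The summed epithelial signal was 4141 after control and 6188 after periostin siRNA, most of it from KRT18 and KRT8. CDH1 was below background on both arrays. Of 6 endothelial markers 5 could be measured and 0 passed 2-fold. Their summed signal was 5624 after control and 5335 after periostin siRNA, most of it from TEK at 5457 and 5175. PECAM1 was below background on both arrays. The part of these markers in the values above was not tested. In bulk RNA a change in the share of cells that express a gene cannot be told apart from a change in RNA per cell.

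With a pair of arrays the pattern of a gene is its log2 ratio, and the genes nearest to a component in that ratio were named by a fixed rule from the 14957 genes whose probe cleared background on each array. They were OGFR and COPG2 for STAT2, ADIRF and CABYR for IRF9, CHPF2 and IDH1 for IRF1, and TBC1D3B and PPM1J for IRF7. The largest distance was 0.00058 on the log2 scale, far below the propagated error of 0.20 of these components. Which genes are nearest therefore cannot be settled from these arrays, and the names carry no claim of shared control.

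**Figure D5:**
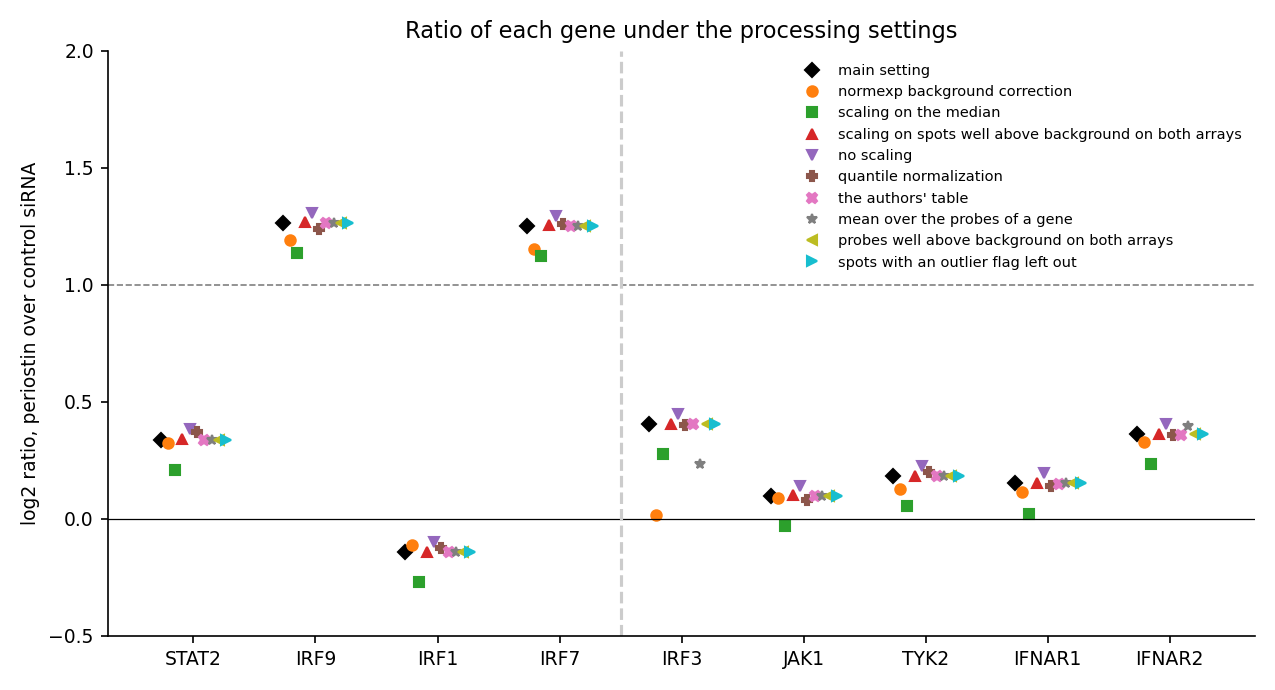
Log2 ratio of each of the 9 genes (vertical axis) under the main setting (black diamonds) and 9 processing alternatives; the dashed horizontal line marks 2-fold. IRF9 stays between 1.14 and 1.31 and IRF7 between 1.12 and 1.29, above the line, and the other genes stay below it, with IRF3 spread from 0.02 to 0.45.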

How the data were processed

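Agilent single-colour arrays of 1 control siRNA and 1 periostin siRNA culture were analysed. The authors deposited scanner files whose intensity values Feature Extraction had background-subtracted without scaling between arrays (version 11.5.1.1 per the file headers, 12.0.3.1 per the submitters' processing notes), with its error estimates and flags. A second deposited table held the authors' normalized intensity, which for probes printed once equalled the scanner intensity times 3.65 for control siRNA and 3.54 for periostin siRNA.

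Log2 intensities were scaled to a common 75th percentile in Python 3.11.15 with numpy 2.4.6 and pandas 2.3.3. R 4.3.3 with limma 3.58.1 gave the normexp (offset 50) and quantile alternatives. Control spots were left out and spots of a probe averaged. Probes were named through RefSeq transcripts (65.1% of spots), and the brightest probe stood for a gene. A probe well above background on 1 array alone gave a bound, its dim side set to its own signal or, where higher, to that array's lowest detected signal (7.43 or 7.89 before scaling). The procedure was checked on simulated data. The genes, the lists and the threshold were chosen with earlier results of these arrays known. From each list, up to 4 genes past 2-fold with the largest change and the relatives of the 9 genes are named, and the remaining named genes were chosen after their values were seen. Alternatives were normexp, 4 other scalings, the authors' table, the mean over probes, filters on dim and on flagged spots, and thresholds of 3-fold and 4-fold. Values of some listed genes are not reported here.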

Additional observations from a re-analysis of the deposited data

How the results depend on the processing

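The 2 genes called past 2-fold, IRF9 and IRF7, were above it under all 9 alternatives of background correction, scaling and probe choice, and no other of the 9 genes passed it under any of them. At thresholds of 3-fold and 4-fold the count was 0. Of 81 values of single genes under an alternative, 80 moved by less than the propagated spot error. The exception was IRF3 under the normexp correction, at 0.02 on the log2 scale, where its other probe was the brighter. Scaling on the median gave the lowest ratio for the other 8 genes and turned JAK1 to -0.03. The median of the inducible genes was between 0.67 and 0.84 and that of the constitutive genes between 0.05 and 0.23. The median of the ISGF3 targets was 1.92 in the main setting and 1.40 under normexp, and the cause was not tested. The share of all genes past 2-fold moved too. It was 3.31% higher and 3.37% lower under normexp, beside 7.97% and 6.42% in the main setting. No paired analysis was possible because there was a single culture for either siRNA, nor could any replicate be left out. Signal over background limits the ligands most, of which 14 of 17 were below it.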
